A study of Rattus norvegicus with 3 samples.

Results

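The mitochondrial ribosomal proteins are encoded by nuclear genes whose rat symbols begin with Mrpl (large subunit) or Mrps (small subunit) followed by a number. Symbols were taken from RefSeq by gene identifier, without regard to upper or lower case. This rule selected 81 of the 18560 genes in the table of replicate 2. Of these, 4 carry names of gene copies (Mrpl42-ps2, Mrpl42l1, Mrpl41l1 and Mrps21l), with 7 counts in all, and are described apart. The other 77 genes comprise 49 of the large and 28 of the small subunit. The tissue was hippocampus, taken from wild-type rats described as healthy, to which the compound with the code name Q808 was given by gavage over 28 days. All 3 samples belong to this 1 group, no untreated group was analysed here, and no value below measures an effect of Q808. The tables of replicates 3 and 1, as used here, end after 307 and 12 genes and hold no mitochondrial ribosomal protein gene, so each level below comes from replicate 2 alone and has no replicate check. Count columns carry the heading Con_Q, whose first part is not explained, and the grouping follows the sample labels.

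The mitochondrial ribosome is the machine inside the mitochondrial matrix that translates the few messenger RNAs of the mitochondrial genome, which encode core subunits of the respiratory chain. Its ribosomal RNAs come from the mitochondrial genome, whereas all its proteins are made in the cytosol from nuclear genes and imported. The small subunit reads the messenger RNA and the large subunit forms the peptide bonds. Many of the proteins descend from bacterial ribosomal proteins, and others are found only in mitochondria. Neurons depend on respiration for synaptic activity, and inherited defects of this ribosome in humans affect heart, brain and other tissues of high energy demand. Roles given below are those described for the mammalian, mainly the human and pig, ribosome.

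Levels are given as CPM, a gene's counts scaled to a common library size from the 15417009 counts of replicate 2, with a 95% exact interval that covers counting error only. CPM is not corrected for transcript length, since no table of transcript lengths was used here, so a higher CPM means more counted reads and not more RNA molecules. The tissue was checked against marker genes in replicate 2. All 10 neuron, 8 astrocyte and 8 oligodendrocyte markers reached 10 counts, with medians of 688, 602 and 419 CPM, and 8 of 9 markers of hippocampal fields did, with a median of 163 CPM. Microglia and vessel markers were all read, at medians of 25.7 and 44.5 CPM. Choroid plexus markers had a median of 3.24 CPM over 4 detected genes, with Ttr at 176 CPM, and of the 4 blood markers Hba-a1 had 127 CPM. The part that each cell type contributes to the mitochondrial ribosomal protein counts was not tested, and in bulk tissue fewer cells of a type and less RNA per cell cannot be told apart.

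Promoters are shown here for 4 genes because they carry the sequence features that recur among these genes and that are counted further below. RefSeq promoter windows (assembly GRCr8, 250 bases before to 50 bases after the gene's start, given 5′ to 3′ on the gene's strand) were found for 63 of the 77 genes. Capitals mark matches, on either strand, to GCGCA, any base and GCGC (the motif of nuclear respiratory factor 1, NRF1, a transcription factor of nuclear genes for mitochondria), CCGGAAG (the core of the ETS family, which includes GABP, also called NRF2) and AA, any base and ATGGCGG (the motif of YY1, a zinc finger transcription factor). Mrpl17, the gene with the most counts, has 1 NRF1 match (chr1:169575650-169575949, minus strand). Mrpl57 has 2 NRF1 matches and 1 ETS match (chr15:36086207-36086506, plus strand). Mrpl46 has a YY1 match just downstream of its start and shares its promoter region with the small subunit gene Mrps11 (chr1:142116981-142117280, minus strand). Mrps18a has an ETS match upstream of its start and a YY1 match at the start itself (chr9:22367331-22367630, minus strand).
Mrpl17: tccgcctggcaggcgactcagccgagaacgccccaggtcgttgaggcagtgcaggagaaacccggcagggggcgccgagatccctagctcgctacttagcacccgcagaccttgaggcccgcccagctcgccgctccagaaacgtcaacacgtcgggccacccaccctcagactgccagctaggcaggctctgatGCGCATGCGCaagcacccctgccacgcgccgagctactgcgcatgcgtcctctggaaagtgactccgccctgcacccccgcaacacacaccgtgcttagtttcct
Mrpl57: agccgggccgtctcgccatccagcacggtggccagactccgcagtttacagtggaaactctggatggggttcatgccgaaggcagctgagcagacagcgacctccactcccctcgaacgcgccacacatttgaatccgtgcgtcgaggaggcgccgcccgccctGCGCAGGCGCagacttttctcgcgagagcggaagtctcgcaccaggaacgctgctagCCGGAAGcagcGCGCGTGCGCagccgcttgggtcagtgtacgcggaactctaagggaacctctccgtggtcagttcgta
Mrpl46: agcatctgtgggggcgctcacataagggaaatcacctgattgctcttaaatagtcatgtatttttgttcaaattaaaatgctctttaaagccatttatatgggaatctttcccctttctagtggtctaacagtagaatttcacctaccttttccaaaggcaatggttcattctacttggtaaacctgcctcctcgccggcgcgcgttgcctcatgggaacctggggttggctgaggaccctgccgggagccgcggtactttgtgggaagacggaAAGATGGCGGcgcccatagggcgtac
Mrps18a: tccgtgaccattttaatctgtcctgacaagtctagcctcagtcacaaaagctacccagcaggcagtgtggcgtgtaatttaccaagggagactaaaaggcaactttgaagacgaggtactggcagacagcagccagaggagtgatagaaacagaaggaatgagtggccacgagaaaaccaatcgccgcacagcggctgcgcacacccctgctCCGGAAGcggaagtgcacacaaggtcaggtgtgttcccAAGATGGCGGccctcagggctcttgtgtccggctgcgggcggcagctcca

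Nearly all mitochondrial ribosomal protein genes were read, and the detected ones lay at moderate levels, closer together than detected genes at large. At least 10 counts were found for 74 of 77 genes (96.1%), against 77.0% of all genes in the table. The large subunit had 46 of 49 (93.9%) and the small subunit 28 of 28 genes at this minimum. None reached 100 CPM, which 13.1% of all genes did. The detected members had a median of 31.6 CPM and ran from 2.72 to 84.9 CPM, while all 14295 detected genes had a median of 25.2 CPM and ran from 0.649 to 5578 CPM. Of the 74 detected members, 71 lay inside the middle 50% of detected genes (7.01 to 69.4 CPM), 1 above it and 2 below it. The standard deviation (SD) of log2 CPM was 0.79 over the detected members and 2.36 over all detected genes. Together the 77 genes took 38120 counts, or 0.247% of the library (95% Clopper-Pearson interval 0.245 to 0.250%).

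**Figure D1:**
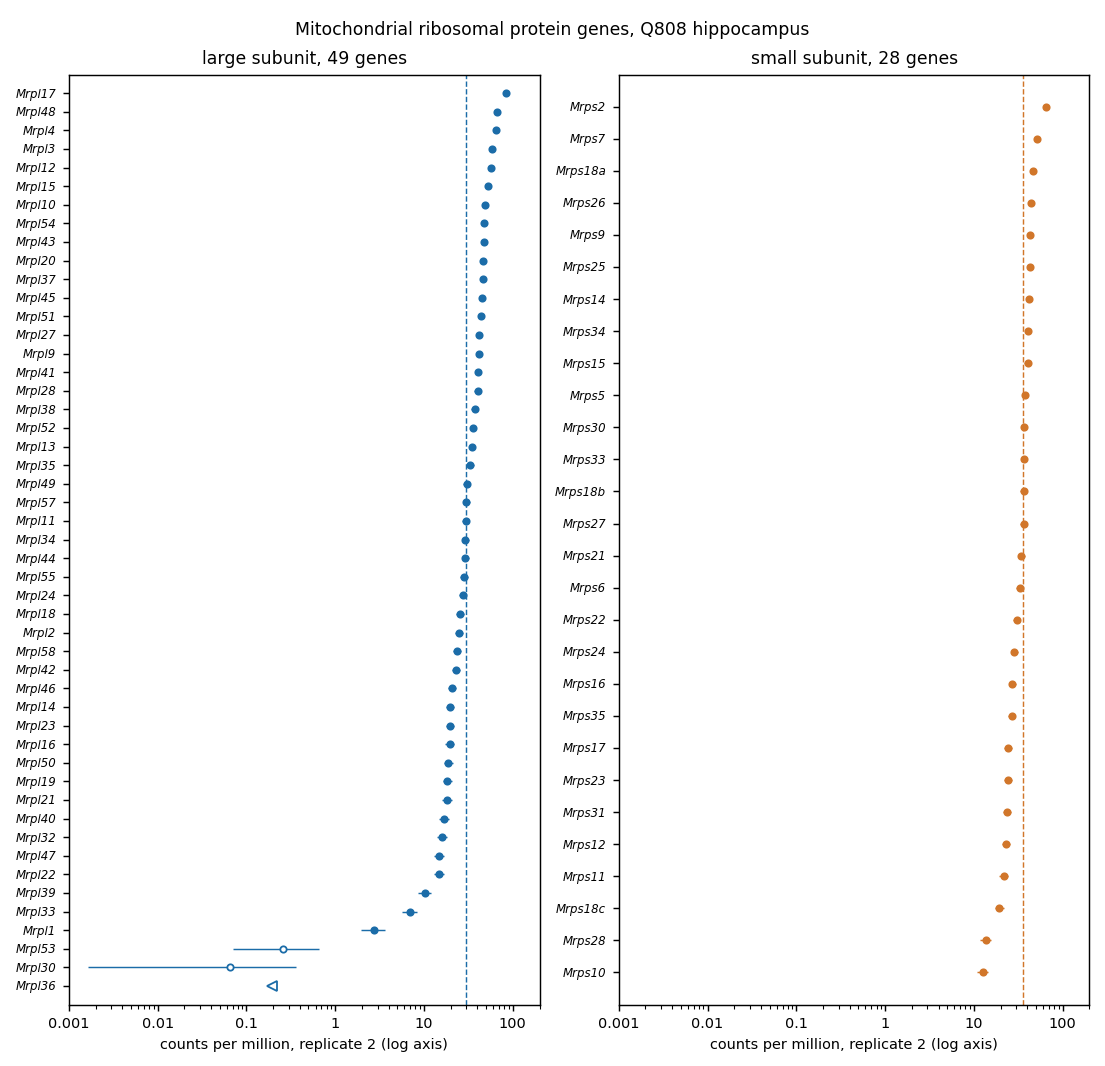
Level of each of the 77 genes in replicate 2, in CPM on a log axis, with large subunit genes on the left and small subunit genes on the right; points are values, bars are 95% exact counting intervals, and dashed lines are the subunit medians (29.8 and 35.3 CPM). Open symbols are genes under 10 counts, and the triangle marks a count of 0, drawn at the floor of 0.195 CPM (3 counts). Most genes of both subunits form a smooth slope, and a tail of low genes is seen in the large subunit.

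The subunits were compared by the counted reads of their detected genes. The large subunit had a median of 29.8 CPM over 46 genes and the small subunit a median of 35.3 CPM over 28 genes, a ratio of 0.844. Of the large subunit genes, 19 lay above the small subunit's median, and 17 of the small subunit genes lay above the large subunit's median. On the log2 scale the mean level was lower by 0.14 in the large subunit, and the mean count per gene was almost equal, at a ratio of 0.994. In sum the large subunit took 23643 counts and the small subunit 14477 counts, a ratio of 1.63 (95% exact interval 1.60 to 1.67), with 49 genes against 28. Genes are not replicates of a condition and all values share 1 library, so the difference in medians has no test.

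The subunits differed more in spread than in level. The SD of log2 CPM was 0.90 in the large subunit and 0.54 in the small subunit, a ratio of 1.66. From the highest to the lowest detected gene there was a 31.2-fold range in the large subunit and a 5.13-fold range in the small subunit. The interquartile range of log2 CPM was 1.20 in the large subunit and 0.76 in the small subunit, so the middle genes were also wider apart. Within 2-fold of the subunit's own median lay 39 of 46 large subunit genes and 26 of 28 small subunit genes. Of the large subunit genes, 3 lay above the highest small subunit gene and 3 detected ones below the lowest. The wider spread rests in part on the lowest genes: without Mrpl1 the ratio of SDs was 1.38, and without Mrpl1 and Mrpl33, left out after their values were seen, it was 1.26.

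Among large subunit genes, Mrpl17 had the most counts. It encodes bL17m, a protein near the exit of the tunnel through which the new chain leaves, and had 1309 counts or 84.9 CPM (80.4 to 89.6). Mrpl48, whose product lies in the central protuberance, had 66.1 CPM (62.1 to 70.3), and Mrpl4, whose product lines the tunnel wall, had 65.5 CPM (61.5 to 69.7). Their intervals overlap, while that of Mrpl17 lies above both. Mrpl3, encoding a protein close to the peptidyl transferase centre, had 57.8 CPM, and Mrpl12, encoding the stalk protein that recruits translation factors and in human cells also binds the mitochondrial RNA polymerase, had 57.3 CPM. These 5 genes took 21.6% of the large subunit's counts.

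Among small subunit genes, Mrps2 led with 996 counts, or 64.6 CPM (60.7 to 68.7). It was followed by Mrps7, encoding a protein of the head that contacts transfer RNA, at 51.2 CPM (47.7 to 54.9). Mrps18a (46.5 CPM), Mrps26 (43.8 CPM) and Mrps9 (43.1 CPM) came next, with overlapping intervals, and the 5 genes took 26.5% of the small subunit's counts. The lowest were Mrps10, a head protein gene, at 12.6 CPM (10.9 to 14.5), and Mrps28 at 13.6 CPM (11.8 to 15.5), ahead of Mrps18c (19.4 CPM), Mrps11 (21.6 CPM) and Mrps12 (22.8 CPM). The product of Mrps12 belongs to the decoding centre. No small subunit gene fell under 10 CPM, whereas 2 detected large subunit genes did.

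Most neighbours in the order of levels could not be told apart by counting error. In the ranking of the 74 detected genes there are 73 neighbouring pairs, and the 95% exact interval of the ratio lay above 1 in 4 of them. These were Mrpl17 over Mrpl48 (1.28-fold, 1.18 to 1.40), Mrps2 over Mrpl3 (1.12-fold, 1.02 to 1.22), Mrpl39 over Mrpl33 (1.47-fold, 1.14 to 1.89) and Mrpl33 over Mrpl1 (2.55-fold, 1.77 to 3.73). These breaks stood at both ends of the order and below Mrps2. Half-widths of the counting intervals ran from 5.46% to 31.5% of the value.

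The spread between samples could be measured only in other genes. Replicates 3 and 2 shared 167 genes whose counts were at least 10 in both and in replicate 2 lay in the range of the detected members (42 to 1309 counts). After scaling with edgeR's TMM factors, the log2 ratio of replicate 3 over replicate 2 had an SD of 0.42 (0.35 without Ace, the gene with the largest ratio, left out after its value was seen), and 164 of these genes (98.2%) lay within 2-fold. The ratios of these 167 genes ran from 0.541 to 8.40, or to 4.38 without Ace. Among the 40 genes in the middle 50% of the members' counts, they ran from 0.653 to 1.44. In replicate 2 Mrpl17 had 1.31 times the counts of Mrps2 (95% exact interval 1.21 to 1.43), and Mrps2 had 5.13 times those of Mrps10 (4.40 to 6.02). Whether these ratios between genes would hold in another library was not tested. No label says that the samples are separate animals, so this spread may be technical.

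Genes were also grouped by evolutionary origin. Large subunit genes with a bacterial homologue had a median of 29.3 CPM (27 of 29 detected), and those specific to mitochondria had 33.1 CPM (18 of 19 detected). In the small subunit the medians were 32.8 CPM for the 15 genes with a bacterial homologue and 36.3 CPM for the 11 mitochondria-specific genes. The spread was wider with a bacterial homologue, at an SD of log2 CPM of 1.05 in the large and 0.60 in the small subunit, than among mitochondria-specific genes, at 0.67 and 0.50. The 2 lowest detected genes, Mrpl1 and Mrpl33, both have bacterial homologues and enter the SD of 1.05, which was not computed without them. With a bacterial homologue the interquartile range of log2 CPM was 1.21 in the large and 0.79 in the small subunit. Among mitochondria-specific genes it was 0.97 and 0.61. Mrpl55, Mrps18a and Mrps30 were assigned to neither origin, and of these only Mrps18a carried the KEGG ribosome pathway in the deposited annotation. For the assigned genes this annotation largely follows the same division. The KEGG ribosome pathway was attached to 28 of 29 large and 14 of 15 small subunit genes with a bacterial homologue, Mrpl47 and Mrps24 being the exceptions, and to 0 of 19 and 0 of 11 mitochondria-specific genes.

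By place in the ribosome, the stalk genes had the highest median. Mrpl12 had 57.3 CPM, Mrpl10, which anchors the stalk, had 49.2 CPM, and Mrpl11, at its base, had 29.5 CPM. Mrpl12 thus had 1.17 times the counts of Mrpl10 (95% exact interval 1.06 to 1.29) and 1.94 times those of Mrpl11 (1.73 to 2.18). The interval of each of these ratios lay above 1. The 6 tunnel exit genes had a median of 23.4 CPM and were far apart: Mrpl17 stood at 84.9 CPM and Mrpl45, whose product anchors the ribosome to the inner membrane, at 45.6 CPM, while Mrpl24 (27.2 CPM), Mrpl23 (19.7 CPM), Mrpl47 (14.9 CPM) and Mrpl22 (14.9 CPM) were lower. Mrpl17 had 5.72 times the counts of Mrpl22 (4.96 to 6.61).

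The 5 genes of the central protuberance, the crest of the large subunit that contacts the small one, had a median of 25.4 CPM. Mrpl48 led them at 66.1 CPM, ahead of Mrpl38 (37.2 CPM), Mrpl18 (25.4 CPM), Mrpl46 (20.6 CPM) and Mrpl40 (16.7 CPM). The ratio of Mrpl48 over Mrpl40 was 3.95 (95% exact interval 3.44 to 4.55). The 8 genes of the small subunit head had a median of 32.5 CPM. Mrps7, Mrps9 (43.1 CPM) and Mrps14 (41.4 CPM) were the highest of them, followed by Mrps33 (36.5 CPM), Mrps24 (28.5 CPM), Mrps35 (26.6 CPM) and Mrps31 (23.5 CPM), and Mrps10 was the lowest. Mrps7 had 4.07 times the counts of Mrps10 (3.48 to 4.79), so genes of 1 region of the ribosome differed several-fold in counted reads, with transcript length not taken into account.

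**Figure D2:**
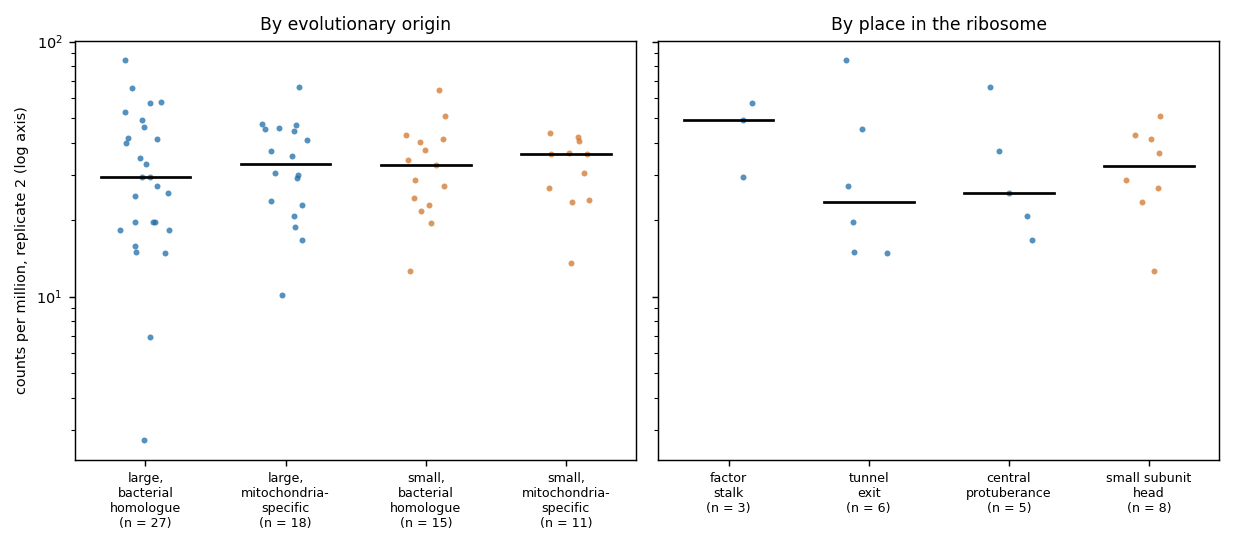
Levels of detected genes in CPM on a log axis, by evolutionary origin (left) and by place in the ribosome (right), with large subunit genes in blue and small subunit genes in orange; each point is 1 gene in replicate 2 and black bars are medians. Medians by origin lie between 29.3 and 36.3 CPM, and the lowest points, Mrpl33 and Mrpl1, belong to the large subunit genes with a bacterial homologue.

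Symbols do not always give the subunit. The products of Mrps18a (46.5 CPM) and Mrps30 (36.8 CPM) are placed in the large subunit in structures of the mammalian ribosome. A gene labelled mitochondrial ribosomal protein S36 in the table carries the symbol Kgd4 in RefSeq, belongs to the 2-oxoglutarate dehydrogenase complex, and had 41.7 CPM. Further proteins of the ribosome have other symbols. For the small subunit these were Ptcd3 (52.9 CPM), an RNA-binding protein at the messenger RNA entry, Aurkaip1 (50.3 CPM), Dap3 (38.9 CPM), a GTP-binding protein, and Chchd1 (29.5 CPM). For the large subunit it was Gadd45gip1, with 56.1 CPM. All 5 lay within the range of the Mrpl and Mrps genes. With the genes placed by structure and these added, the large subunit had a median of 30.5 CPM over 49 genes and the small subunit 35.3 CPM, a ratio of 0.864.

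The 5 lowest genes all belonged to the large subunit. Mrpl36, encoding bL36m, was at 0 counts, and its upper limit is 0.195 CPM (3 counts). Mrpl30 had 1 count and Mrpl53 had 4 counts. Mrpl1, encoding the protein of the mobile L1 stalk, had 42 counts or 2.72 CPM (1.96 to 3.68), and Mrpl33 had 107 counts or 6.94 CPM (5.69 to 8.39). For 7 of the 77 genes the table holds a second row with the same protein in its product name, and 4 of these 7 are Mrpl36, Mrpl30, Mrpl53 and Mrpl1. All 3 genes under 10 counts have such a row, against 0 of the 70 genes without one.

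The second rows were themselves low. An unnamed L1-like gene had 65 counts, more than the 42 of Mrpl1, and together they had 107 counts. A second L36 row had 14 counts beside 0 for Mrpl36, a second L30 row had 7 counts beside 1 for Mrpl30, and a second L53 row had 0 beside 4 for Mrpl53. These 4 rows had no entry in the RefSeq table used. The other second rows were Mrpl41l1 (1 count, beside 632 for Mrpl41), Mrpl42l1 and Mrpl42-ps2 (0 counts each, beside 353 for Mrpl42) and Mrps21l (6 counts, beside 528 for Mrps21). Adding them up left Mrpl30, Mrpl53 and Mrpl36 at 8, 4 and 14 counts.

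Copies elsewhere in the genome were counted from the RefSeq symbols. Of the 77 genes, 23 have at least 1 copy named after them, and Mrpl30 has the most with 9. The 22 detected genes with a copy or second row had a median of 24.6 CPM, and the 52 genes with neither had a median of 34.1 CPM. Several genes with copies were nevertheless well read, among them Mrpl17, the highest of all, and Mrpl15 (52.9 CPM), each with 2. Mrpl33 and Mrpl39 (10.2 CPM) were low without a named copy or second row. How the authors' counting treated reads shared with such copies is not known, and the values of these genes are uncertain to that extent; the part of copies in the low values was not tested. Of the 77 genes, 17 (22.1%) overlap another gene of the table in the RefSeq annotation, against 17.5% of protein-coding genes. Counting any annotated gene, 20 of the 77 (26.0%) overlap another, against 42.0% of protein-coding genes. Mrpl36 overlaps Ndufs6, and of the genes high in the order Mrpl48 overlaps Rab6a and Mrps2 overlaps Pierce1. With the strand setting of the counting not known, reads of overlapping genes may not be told apart, at either end of the order. Detected genes with such an overlap had a median of 30.3 CPM (n = 16) and those without it 33.7 CPM (n = 58).

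**Figure D3:**
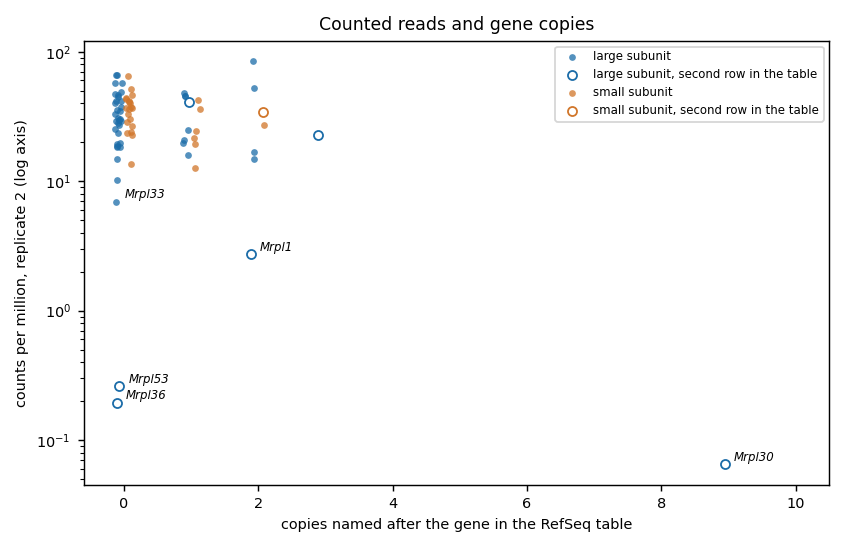
Level in CPM (log axis) of each of the 77 genes against the number of copies named after it in the RefSeq table; open circles are genes for which the count table holds a second row, and points are shifted sideways for display. Mrpl36, with no count, is drawn at the floor of 0.195 CPM. The 4 lowest genes (Mrpl30, Mrpl36, Mrpl53 and Mrpl1) are open circles, and Mrpl30 stands alone at 9 copies.

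Promoters were searched for what the genes share beyond their names. An ETS core was found in 33.3% of the 63 promoters of mitochondrial ribosomal protein genes, against 16.3% of the 11374 promoters of detected protein-coding genes and 9.22% of all 27457 promoters. NRF1 matches stood in 15.9%, against 9.35% and 4.71%, and YY1 matches in 15.9%, against 3.73% and 1.83%. At least 1 of the 3 motifs was present in 33 of 63 promoters (52.4%), against 26.0% of those of detected genes. The 63 include Mrpl53, Mrpl30 and Mrpl36, which were under 10 counts and each have an ETS core. Detected members alone numbered 18 with an ETS core and 42 without. CCAAT, the NF-Y core, was found in 41.3%, against 37.2% and 37.7%. TATAAA was found in 11.1%, above the 6.85% of detected genes and below the 14.3% of all promoters. None of the matches in these 63 promoters overlapped another. The median number of CG dinucleotides was 18 per promoter, below the 20 of detected genes and above the 7 of all promoters. These shares describe letters in a window and not binding, and the windows are anchored at annotated starts, which can be imprecise.

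Motifs were also counted by subunit, beside the share of detected protein-coding genes. NRF1 matches were found in 8 of 41 large subunit promoters (19.5%) and 2 of 22 small subunit promoters (9.09%), against 9.35%. The small subunit thus lay near the wider share in NRF1 matches. YY1 matches were found in 5 of 41 (12.2%) and 5 of 22 (22.7%), against 3.73%. ETS cores were found in 13 of 41 (31.7%) and 8 of 22 (36.4%), against 16.3%. In the sequences printed above, the NRF1 match of Mrpl17 begins 55 bases before the start, and in Mrpl57 the ETS core lies between 2 NRF1 matches, with first bases at 86, 29 and 18 bases before the start. The YY1 match of Mrps18a begins on the first transcribed base and that of Mrpl46 on base 25. Both read AAGATGGCGG, which holds an ATG. Detected genes with an ETS core had a median of 36.0 CPM (n = 18) and those without it 30.0 CPM (n = 42). With and without an NRF1 match the medians were 36.3 CPM (n = 9) and 32.8 CPM (n = 51), and with and without a YY1 match they were 30.0 CPM (n = 10) and 33.5 CPM (n = 50). The ranges of genes with and without a match overlapped for each of these motifs.

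**Figure D4:**
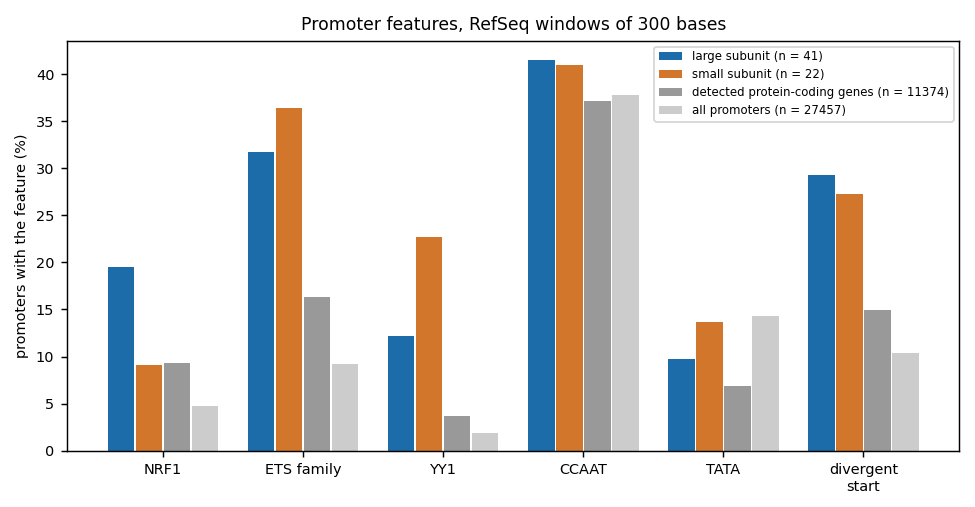
Share of promoters, in percent, that hold each motif on either strand or a divergent start within 1000 bases, for large subunit genes (n = 41), small subunit genes (n = 22), detected protein-coding genes (n = 11374) and all promoters in the RefSeq table (n = 27457). ETS, YY1 and divergent starts are more frequent in both subunits than in either wider set, and CCAAT is similar in all.

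Many of these genes start back to back with a neighbour. A start on the opposite strand within 1000 bases, pointing away, was annotated for 18 of 63 promoters (28.6%), against 14.9% of those of detected protein-coding genes. A row in the table exists for 17 of the neighbours, including Mrpl46 and Mrps11, which belong to the set and neighbour each other. All 17 had at least 10 counts, from 15 to 3594, where 77.0% of all genes in the table did. Others of the 17 were Fau beside Mrpl49, Tcp1 beside Mrpl18 and Ndufb5, a respiratory complex I gene, beside Mrpl47. In 1 pair both genes belong to the mitochondrial ribosome. Mrpl46 and Mrps11 start 234 bases apart, their promoter windows share 267 bases, and the pair joins a large and a small subunit gene. Mrpl46 had 318 counts and Mrps11 had 333 counts, a ratio of 0.955 (95% exact interval 0.816 to 1.12).

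Of 5 other lists of mitochondrial gene expression, 4 had a lower median than the 31.6 CPM of the mitochondrial ribosomal protein genes, and membrane insertion had a higher one, 59.0 CPM over 3 genes. Dhx30 and Lrpprc also lay above Mrpl17. All 13 translation factor genes reached 10 counts, their median being 20.4 CPM, led by Tufm, the elongation factor Tu gene, at 73.0 CPM and the elongation factor G gene Gfm1 at 37.3 CPM, with Mtrfr lowest at 0.908 CPM. Of 19 assembly and ribosomal RNA modification genes with a row, 18 reached 10 counts, at a median of 14.7 CPM, led by the helicase gene Dhx30 (118 CPM) and Rbfa (35.5 CPM), while the rRNA methyltransferase gene Nsun4 had 1 count. A further row without a symbol, with NSUN4 in its product name, had 2 counts. The 10 transcription and RNA stability genes had a median of 20.8 CPM, led by Lrpprc (111 CPM) and the mitochondrial RNA polymerase gene Polrmt (36.5 CPM), with Tefm lowest at 5.19 CPM. The 16 mitochondrial aminoacyl-tRNA synthetase genes with a row had a median of 14.9 CPM, with Iars2 (60.3 CPM) and Tars2 (47.1 CPM) highest and Ears2 lowest (3.44 CPM). Of the membrane insertion genes, Oxa1l, whose product receives the new chains, had 74.3 CPM, Letm1 had 59.0 CPM and Cox18 had 17.4 CPM. The SD of log2 CPM was 1.14 in the assembly, 1.13 in the transcription and 1.10 in the synthetase list, each above the 0.90 of the large and the 0.54 of the small mitochondrial subunit. The interquartile range of log2 CPM gave another order. It was 1.05 in the assembly, 0.69 in the transcription and 1.26 in the synthetase list, against 1.20 in the large and 0.76 in the small subunit.

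The 77 mitochondrial genes were counted less than those of the cytosolic ribosome, which makes all other proteins of the cell. The mitochondrial genes had a median of 31.6 CPM and took 0.247% of the counts, while the cytosolic genes had a median of 176 CPM (71 of 74 detected) and took 1.31%. Rpl4 (451 CPM) and Rpl3 (423 CPM) led the large and Rpsa (330 CPM) and Rps16 (319.8 CPM) the small cytosolic subunit. In the cytosolic ribosome the large subunit had a median of 183 CPM (42 of 44 detected) and the small subunit 156 CPM (29 of 30 detected), with SDs of log2 CPM of 1.39 and 0.75. The mean of log2 CPM was 7.17 in the large and 7.34 in the small cytosolic subunit, so the order of the subunits turned with the measure. Spread depended on the measure as well, since the interquartile range of log2 CPM was 1.01 in the large and 1.15 in the small cytosolic subunit. The lowest detected genes of the large one were Rpl7a (3.37 CPM) and Rplp2 (4.35 CPM). There too single genes were nearly without counts: Rpl8 had 0, Rpl35a had 1 and Rps6 had 4 counts. These genes also have many copies in mammalian genomes, whose part in these values was not tested.

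**Figure D5:**
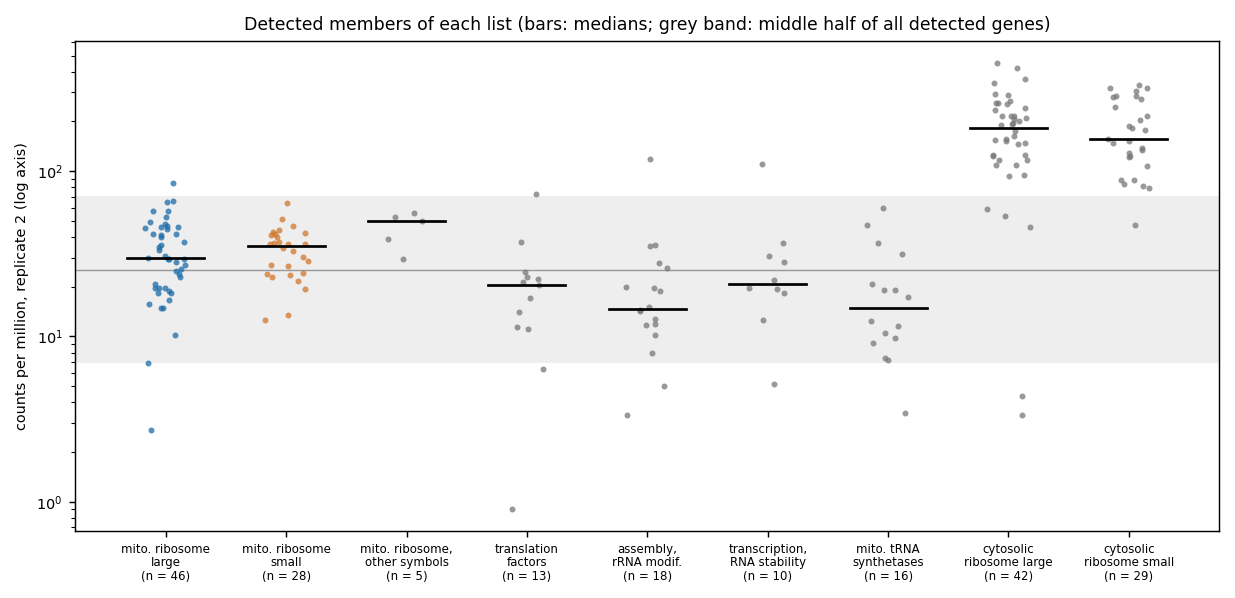
Levels of the detected genes of each list in replicate 2, in CPM on a log axis; each point is 1 gene, black bars are medians, the grey line is the median of all detected genes (25.2 CPM) and the grey band their middle 50% (7.01 to 69.4 CPM). Large and small mitochondrial subunit genes cluster inside the band around 29.8 and 35.3 CPM, and the cytosolic ribosomal protein genes lie mostly above it.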

How the data were processed

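Hippocampal RNA of 3 samples in 1 group was extracted with TRIzol, captured on mRNA beads and sequenced, per the labels' protocols. Each sample has 1 deposited file of raw counts. Tools named per the submitters' processing notes are HTSeq, HISAT2, Bowtie2, SAMtools, StringTie, Cufflinks, Trimmomatic and DESeq, with no roles; the genome build and strand setting were not given in the sources used here. Symbols came from RefSeq (GRCr8) for 17515 of 18560 genes. Replicate 2 holds 15417009 counts; the tables of replicates 1 and 3 are partial, so their depths are unknown.

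CPM, summaries and exact intervals (95%, Clopper-Pearson or conditional binomial) were computed with Python 3.11.15 and SciPy 1.17.1. Detected means 10 or more counts. Intervals and the floor of 3 counts reflect counting error alone. They treat reads as independent, although no molecular identifiers mark independent molecules, so the intervals may be too narrow. Replicates 3 and 2 were scaled with edgeR 4.0.16. The ratio of subunit medians was tried on simulated counts with the same mean for all genes of a subunit. The ratio of SDs between subunits was not tried in this way. The scaling and SD of the replicate ratio were also tried on simulated counts. Levels per kilobase had been planned; with no length table, CPM was used. Named genes were the 5 highest and 5 lowest per subunit, those under 10 counts, the role lists, and the 2 highest and the lowest of other lists; any other was chosen after its values were seen. Members and lists were chosen with earlier results of these data known.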

Additional observations from a re-analysis of the deposited data

How the results depend on the processing

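The ratio of subunit medians (0.844, large over small) stayed between 0.813 and 0.864 under other minimums, placement by structure, added second rows and removal of genes with copies, overlaps or low counts; with geometric means it was 0.907 and with means per gene 0.994. The ratio of SDs (1.66) stayed above 1 but moved: 3.33 at a minimum of 1 count, 1.38 at 50 counts, 4.03 with no minimum, 1.49 without genes that have copies and, chosen after seeing the data, 1.99 with second rows added, 1.86 without overlapping genes, 1.38 without Mrpl1 and 1.26 without Mrpl1 and Mrpl33. Most of these settings change by construction which low genes enter: a minimum of 1 count admits Mrpl30 and Mrpl53, no minimum also Mrpl36, and second rows Mrpl36 at 14 counts, while the minimum of 50 counts leaves out Mrpl1 alone and the removal of genes with copies also takes it out. For overlapping genes the cause was not tested. Of the 77 genes, 76 had at least 1 count (90.8% of all genes did) and 73 at least 50 counts (65.0% of all genes). The median of the large cytosolic subunit was 170 CPM with no minimum, against 183 CPM. The SD of log2 ratios between replicates 3 and 2 was 0.44 over all shared genes, 0.78 with no minimum and 0.40 when Ace was left out, a choice made after seeing the data. Leaving out replicate 1 changes none of these values; leaving out replicate 3 changes none but the SD between replicates, which it ends; leaving out replicate 2 ends all. Levels per kilobase of transcript or coding sequence and TPM were not run, for lack of lengths. No paired analysis was possible because there is a single group.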
